A study of Mus musculus with 14 samples.

Results

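Nanog, Pou5f1 and Sox2, the 3 genes for the core transcription factors of mouse embryonic stem (ES) cells, were examined through every ChIP-seq peak whose centre lay within 100 kb of their gene bodies. The rule used position alone, and it took 62 of the 24416 peaks in 8 deposited peak lists. Of these, 24 lay at Nanog (chr6:122657507-122664651, ENSMUSG00000012396.5), 9 at Pou5f1 (chr17:35642982-35647721, ENSMUSG00000024406.9) and 29 at Sox2 (chr3:34548927-34551383, ENSMUSG00000074637.3), all in mm9 and all on the plus strand in GENCODE vM1. Peaks of different lists with centres within 100 bp, chained together, were taken as a single site, which gave 29 sites at the 3 genes of 17177 over the genome. Distances are given from the annotated start of each gene, negative for upstream.

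All cells belonged to the mouse ES line EBRTcH3 (EB3), were kept in leukemia inhibitory factor and were cultured for 26 h without tetracycline. Clones A6, B8 and C4 carry a FLAG-tagged mouse Sim2 transgene with a Venus reporter in the ROSA-TET system, in which a modified human CMV promoter is switched on when tetracycline is withdrawn, so the SIM2 mapped here was an overexpressed, tagged protein and each clone is a single line. Anti-FLAG ChIP was done in the 3 clones, the replicates of the SIM2 experiment, and in parental EB3 cells without the Sim2 transgene, as the control. ChIP of NANOG, of OCT4 (the product of Pou5f1) and of the Mediator subunits MED1 and MED12 was represented by 1 library each, all from clone A6, and therefore from cells that express the transgene. SOX2 ChIP, and ChIP of these factors in EB3 cells, were not analysed here.

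OCT4 is a POU factor that binds octamer sequences, often next to SOX2 on composite SOX-POU elements, and NANOG is a homeodomain factor. In ES cells these proteins occupy enhancers of their own genes and of each other's genes, a circuit known for keeping the cells pluripotent. Mediator is the large complex that links factors on enhancers to RNA polymerase II, and SIM2 is a bHLH-PAS factor that binds DNA with its partner ARNT at elements with the core ACGTG. Pou5f1 is known to have a distal and a proximal enhancer upstream of its start, Nanog has enhancers on both sides, and Sox2 has regulatory regions close to the gene and a control region far downstream.

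The lists held 14815 peaks for NANOG, 2532 for OCT4, 762 for MED1, 1071 for MED12 and 81 for FLAG in EB3, while SIM2 had 2387 peaks in clone A6, 2137 in clone B8 and 631 in clone C4. The depth recovered from the steps of the normalized tag count ran from 12.91 to 31.55 M tags per library. The search favoured small depths, so multiples of these values were not excluded. Each peak has a normalized tag count (tags scaled to library size), a score (tags, not scaled) and a fold over the input. Scores carry exact Poisson 95% intervals, which cover counting error only. The libraries are single except for SIM2, and peaks of a library are not replicates, so no test was run and shares over all genes or sites stand beside the counts. Tag counts are compared within a list only. Ranks are by normalized tag count within the list unless another value is named.

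Sequences of 200 bases around the centre of 8 sites are shown here because these sites hold the largest numbers of coinciding factors, the highest peaks, the motif matches or the SIM2 peaks found in more than 1 clone. All are the plus strand of mm9. Capitals mark exact matches, on either strand, to an octamer core, a SOX core or the SIM2 and ARNT core. They also mark a shortened SOX-POU composite, a pattern added after the sequences had been seen. The full composite had no match in them. The cores are spelled out and the composites described with the motif results, and adjoining matches run together. In the order printed, the windows are chr17:35640898-35641097, chr3:34545214-34545413, chr3:34552916-34553115, chr3:34644294-34644493, chr6:122558509-122558708, chr6:122574611-122574810, chr6:122652950-122653149 and chr3:34659387-34659586.
Pou5f1 -1984 bp: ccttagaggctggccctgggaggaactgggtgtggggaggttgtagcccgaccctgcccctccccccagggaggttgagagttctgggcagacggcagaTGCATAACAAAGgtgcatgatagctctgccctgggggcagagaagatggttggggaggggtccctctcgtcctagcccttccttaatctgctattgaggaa
Sox2 -3613 bp: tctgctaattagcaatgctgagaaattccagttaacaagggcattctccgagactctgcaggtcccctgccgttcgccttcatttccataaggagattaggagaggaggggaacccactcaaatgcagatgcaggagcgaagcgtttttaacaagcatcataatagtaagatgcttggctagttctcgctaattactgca
Sox2 +4089 bp: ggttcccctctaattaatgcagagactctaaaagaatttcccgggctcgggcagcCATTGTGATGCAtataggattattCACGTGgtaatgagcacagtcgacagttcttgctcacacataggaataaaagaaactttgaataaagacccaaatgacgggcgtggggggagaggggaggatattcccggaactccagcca
Sox2 +95467 bp: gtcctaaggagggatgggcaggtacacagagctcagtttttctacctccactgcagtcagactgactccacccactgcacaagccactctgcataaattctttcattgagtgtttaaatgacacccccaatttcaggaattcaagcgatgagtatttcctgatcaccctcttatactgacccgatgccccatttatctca
Nanog -98898 bp: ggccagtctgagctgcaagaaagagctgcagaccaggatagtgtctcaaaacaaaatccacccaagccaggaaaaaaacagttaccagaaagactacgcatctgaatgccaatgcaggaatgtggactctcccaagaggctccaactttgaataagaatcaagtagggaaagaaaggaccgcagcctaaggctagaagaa
Nanog -82796 bp: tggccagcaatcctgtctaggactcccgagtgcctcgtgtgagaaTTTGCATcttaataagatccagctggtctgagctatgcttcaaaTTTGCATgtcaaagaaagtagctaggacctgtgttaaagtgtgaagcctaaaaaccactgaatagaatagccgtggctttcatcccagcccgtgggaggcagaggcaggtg
Nanog -4457 bp: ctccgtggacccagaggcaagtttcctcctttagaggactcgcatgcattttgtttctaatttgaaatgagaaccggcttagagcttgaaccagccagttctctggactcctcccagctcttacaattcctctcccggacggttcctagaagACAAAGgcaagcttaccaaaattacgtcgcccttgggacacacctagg
Sox2 +110560 bp, beyond the 100 kb limit: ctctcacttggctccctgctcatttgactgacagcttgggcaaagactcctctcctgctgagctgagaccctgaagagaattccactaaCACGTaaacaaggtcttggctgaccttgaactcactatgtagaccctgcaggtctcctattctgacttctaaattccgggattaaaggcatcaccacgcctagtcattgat

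The 3 genes differed in how many factors had peaks around them. Sox2 was surrounded by peaks of all 4 endogenous factors and of SIM2 in 2 clones, Nanog likewise but with fewer Mediator peaks, and Pou5f1 mainly by NANOG peaks. NANOG had 9 peaks at Nanog, 6 at Pou5f1 and 7 at Sox2, where 67.6% of the 22380 protein-coding genes had at least 1 NANOG peak within the same distance. OCT4 had 3, 1 and 5 peaks at Nanog, Pou5f1 and Sox2, against 21.8% of genes with at least 1. MED12 had 3, 1 and 6 peaks, against 10.9% of genes, and MED1 had 1, 0 and 2, against 7.97%.

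SIM2 in A6 had 5 peaks at Nanog, 1 at Pou5f1 and 6 at Sox2, against 23.0% of protein-coding genes with at least 1. In B8 the numbers were 3, 0 and 3, against 19.8% of genes. In C4 no peak lay within 100 kb of any of the 3 genes, a list in which 6.06% of genes had a peak. The EB3 control had none either, with 1.14% of genes near an EB3 peak. Peaks of SIM2 in A6, NANOG, OCT4 and MED12 were all present at each of the 3 genes, a combination found at 6.29% of protein-coding genes. Nanog and Sox2 also had both Mediator subunits, as 4.93% of genes did, and SIM2 in both A6 and B8, as 14.8% did.

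The number of peaks at Sox2 was high even among genes with peaks. For MED12, only 2 other protein-coding genes had as many as the 6 peaks of Sox2, namely Jarid2 with 6, the gene of a Polycomb cofactor, and Klf9 with 7, the gene of a Krüppel-like factor. For SIM2 in A6, 11 genes including Sox2 had at least 6 peaks, and 33 including Nanog had at least the 5 of Nanog. For OCT4, 25 genes had at least the 5 of Sox2. NANOG peaks were less particular, since 208 genes had at least the 9 of Nanog, 610 at least the 7 of Sox2 and 1056 at least the 6 of Pou5f1. Neighbouring genes share peaks, so these numbers of genes are not numbers of separate regions. The window is the gene body with 100 kb on either side, so longer genes have wider windows, and the counts were not adjusted for this.

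**Figure D1:**
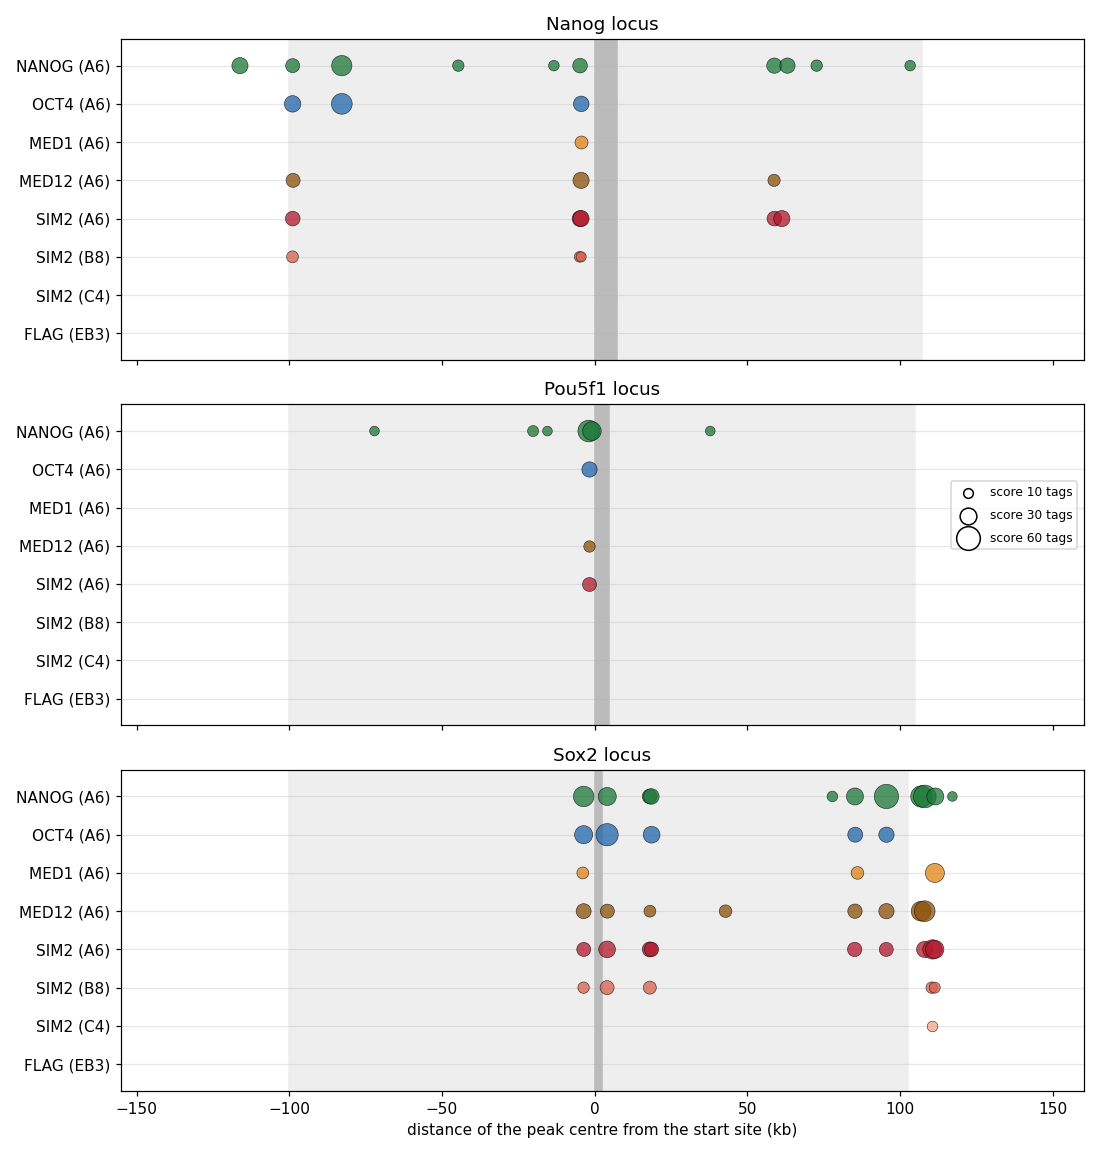
Position of every peak around Nanog, Pou5f1 and Sox2 by list; the horizontal axis is the distance from the start site in kb, circle area is proportional to the score in tags, the dark band is the gene and the pale band the 100 kb on either side. Peaks of Pou5f1 other than NANOG stand in 1 place about 2 kb upstream, while Sox2 has clusters at both sides of the gene and further clusters downstream, some past the pale band.

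At Pou5f1, all peaks other than those of NANOG fell at a single site at -1984 bp, the region of its known distal enhancer. The NANOG peak there, at -1971 bp, had a score of 50 (37.1 to 65.9), a normalized tag count of 19.4 and 23.1 times the input, rank 696 of 14815. OCT4 had a peak at -1982 bp with a score of 25 (16.2 to 36.9), a normalized tag count of 3.5 and 4.21 times the input, rank 2297 of 2532. The OCT4 peak over its own gene was thus among the lowest of its list while the NANOG peak was among the highest of its own.

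The MED12 peak at the same place, -2012 bp, had a score of 14 (7.65 to 23.5), a normalized tag count of 4.7 and 4.27 times the input, rank 790 of 1071. SIM2 in A6 had a peak at -1956 bp with a score of 21 (13.0 to 32.1), a normalized tag count of 9.0 and 5.93 times the input, rank 1938 of 2387, and neither B8 nor C4 had one. The 4 centres spread over 56 bp. A further NANOG peak lay at -922 bp, between that site and the start, with a score of 37 (26.1 to 51.0), a normalized tag count of 13.2 and rank 1892. Its interval overlaps that of the peak at -1971 bp.

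The other 4 NANOG peaks around Pou5f1 were low. They stood at -72104, -20173, -15478 and +37820 bp, with scores of 10, 13, 10 and 10 and normalized tag counts of 3.9, 5.4, 3.9 and 4.6. All 4 were intergenic. The peak at -72104 bp was nearest to the start of H2-Q7, a major histocompatibility class I gene, at -5222 bp from it. The peak at -20173 bp was nearest to H2-Q10, of the same class, and the one at +37820 bp to Cdsn, the corneodesmosin gene, at -8271 bp. The Pou5f1 window holds the starts of 9 other protein-coding genes, so a peak within 100 kb need not belong to Pou5f1. Extending the window to 150 kb added no peak.

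At Nanog, the factors gathered in 3 places, about 4 to 5 kb upstream, 83 to 99 kb upstream and 59 to 73 kb downstream. The densest was the site at -4457 bp, where 5 lists coincided. MED12 had a peak at -4476 bp with a score of 28 (18.6 to 40.5), a normalized tag count of 10.6 and 7.93 times the input, rank 104 of 1071, the best Mediator rank among the peaks of the 3 genes. MED1 had a peak at -4493 bp with a score of 18 (10.7 to 28.4), a normalized tag count of 8.3 and 5.30 times the input, rank 130 of 762. This was the only one of the 29 sites with both Mediator subunits within 100 bp.

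OCT4 had a low peak at the same Nanog site, at -4421 bp, with a score of 26 (17.0 to 38.1), a normalized tag count of 3.8 and rank 2124 of 2532. SIM2 had a peak there in 2 clones. In A6 it was at -4477 bp with a score of 28 (18.6 to 40.5) and a normalized tag count of 12, and in B8 at -4447 bp with a score of 11 (5.49 to 19.7) and a normalized tag count of 4.1. Both were low by fold over the input, with 4.77 times in A6, rank 2364 of 2387, and 4.68 times in B8, rank 1486 of 2137. No NANOG peak lay within 100 bp. It is the only site of the 29 that held OCT4 without NANOG, where 89.0% of all OCT4 sites also held NANOG.

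The nearest NANOG peak stood further upstream, at -4808 bp, with a score of 23 (14.6 to 34.5), a normalized tag count of 5.4 and rank 8199 of 14815. By the other values this NANOG peak was placed higher, at rank 3909 by score and, with 9.22 times the input, at rank 4442 by fold. SIM2 in A6 had a second peak beside that one, at -4790 bp, with a score of 27 (17.8 to 39.3) and a normalized tag count of 10.7. In B8 a second peak lay at -4965 bp with a score of 12 (6.20 to 21.0) and a normalized tag count of 4.8, 175 bp from that second A6 peak, so it was counted as a site of its own. Both clones therefore had a pair of SIM2 peaks close together upstream of Nanog, 313 bp apart in A6 and 518 bp apart in B8. In A6 the intervals of the pair overlap, as they do in B8.

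The upstream group of Nanog peaks lay beside other genes. At -98898 bp, inside an intron of Gdf3 (a TGF-beta family ligand) and 1496 bp from its start, 4 lists coincided. NANOG had a score of 21 (13.0 to 32.1) and a normalized tag count of 7.0 there, OCT4 29 (19.4 to 41.6) and 5.4, SIM2 in A6 23 (14.6 to 34.5) and 9.0, and SIM2 in B8 15 (8.40 to 24.7) and 5.4. A MED12 peak with a score of 21 and a normalized tag count of 7.3, rank 312 of 1071, stood 151 bp downstream of the centre of this site. It was counted apart at 100 bp and joins the site at 200 bp.

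The site at -82796 bp held the strongest NANOG and OCT4 peaks of the Nanog window, and nothing else. NANOG had a score of 44 (32.0 to 59.1), a normalized tag count of 15.5 and 19.4 times the input, rank 1277 of 14815. OCT4 had a score of 46 (33.7 to 61.4), a normalized tag count of 7.0 and 7.75 times the input, rank 536 of 2532. The 2 centres were 6 bp apart. This site is intergenic and lies at -1717 bp from the start of Dppa3 (Stella), a gene of the germ line and of pluripotent cells, so it is much nearer to Dppa3 than to Nanog.

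Downstream of Nanog, the peaks between +58702 and +72652 bp lay in introns of Slc2a3, a glucose transporter gene. At +58753 bp MED12 had a score of 16 (9.15 to 26.0), NANOG 25 (16.2 to 36.9) and SIM2 in A6 23 (14.6 to 34.5), with normalized tag counts of 5.3, 8.5 and 9.9. SIM2 in A6 also stood alone at +61244 bp, with a score of 28 (18.6 to 40.5) and a normalized tag count of 12. NANOG stood alone at +63090, +72652 and +103255 bp with scores of 25, 14 and 12, and upstream at -44660 and -13373 bp with scores of 14 and 12. Of the 13 Nanog sites, 8 were found in 1 list only and 5 of these were NANOG alone.

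At Sox2, all 29 peaks lay between -3905 and +95497 bp, none in the upstream window beyond -3905 bp, and no other protein-coding gene starts within 100 kb. The sites from -3905 to +18567 bp fall in introns of Sox2ot, the long non-coding RNA gene that spans Sox2. On both sides of the gene, at -3613 and +4089 bp, 5 lists coincided. At -3613 bp NANOG had a score of 45 (32.8 to 60.2), a normalized tag count of 17.0 and rank 1009 of 14815. OCT4 had 35 (24.4 to 48.7), 6.3 and rank 702 of 2532, and MED12 24 (15.4 to 35.7), 9.3 and rank 155 of 1071. The SIM2 peak of A6 had a score of 21 (13.0 to 32.1) and a normalized tag count of 8.6, and that of B8 had 14 (7.65 to 23.5) and 4.8. A MED1 peak stood 292 bp upstream of that centre, with a score of 15 and a normalized tag count of 6.4.

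The site at +4089 bp had the highest OCT4 peak of the 3 genes, with a score of 53 (39.7 to 69.3), a normalized tag count of 8.6 and 8.93 times the input, rank 268 of 2532. NANOG had a score of 35 (24.4 to 48.7), a normalized tag count of 14.7 and rank 1479 there, and MED12 21 (13.0 to 32.1), 6.0 and rank 513. It also had the highest SIM2 peaks within 100 kb of the 3 genes in both clones. In A6 the score was 30 (20.2 to 42.8) with a normalized tag count of 12.4, rank 825 of 2387, and in B8 it was 21 (13.0 to 32.1) with 6.1, rank 410 of 2137. Against the next SIM2 peaks, with scores of 28 in A6 and 18 in B8, these values do not stand apart beyond counting error.

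A pair of sites followed at about 18 kb downstream. At +18015 bp NANOG, MED12 and SIM2 in A6 and B8 coincided, with scores of 23, 15, 24 and 18 and normalized tag counts of 9.3, 5.3, 9.9 and 4.1. At +18567 bp NANOG, OCT4 and SIM2 in A6 coincided, with scores of 26, 30 and 22 and normalized tag counts of 10.8, 5.4 and 9.0. Their centres are 552 bp apart, OCT4 was present at the second and absent from the first, and MED12 and B8 the other way round.

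Further downstream of Sox2, 4 lists coincided at both +85190 and +95467 bp. The NANOG peak at +95467 bp was the highest of all 22 NANOG peaks, with a score of 63 (48.4 to 80.6), a normalized tag count of 25.6 and 29.0 times the input, rank 274 of 14815. The lower end of its interval lies above the score of every other NANOG peak within 100 kb of the 3 genes except the 50 at Pou5f1. OCT4 had a score of 25 there, MED12 25 and SIM2 in A6 21, with normalized tag counts of 4.4, 6.7 and 9.0. At +85190 bp the scores were 31 for NANOG, 24 for OCT4, 22 for MED12 and 22 for SIM2 in A6, and their centres spread over 186 bp. The remaining Sox2 peaks stood alone, MED12 at +42824 bp with a score of 17, NANOG at +77809 bp with 12 and MED1 at +86007 bp with 17.

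The 100 kb limit falls inside a cluster downstream of Sox2, and the MED1 and MED12 peaks just past it had higher scores than any inside. At +106862 and +108018 bp MED12 had scores of 42 (30.3 to 56.8) and 46 (33.7 to 61.4) and normalized tag counts of 17.3 and 19.3, ranks 31 and 17 of 1071. The highest MED12 score within 100 kb of any of the 3 genes was 28. MED1 had a score of 39 (27.7 to 53.3) and a normalized tag count of 10.8 at +111341 bp, rank 72 of 762, against a highest score of 18 inside the limit. NANOG had scores of 49, 55, 31 and 10 at +106934, +108048, +111496 and +117078 bp, which lie within the range of its scores inside the limit at the 3 genes (10 to 63).

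SIM2 peaks were also found there in all 3 clones, and in A6 a pair of them scored above the 30 that was highest inside the limit. In A6 the peaks at +110561 and +111299 bp had scores of 40 (28.6 to 54.5) and 36 (25.2 to 49.8) and normalized tag counts of 17.2 and 14.6, while one at +108005 bp had 28 and 11.6. B8 had peaks at +110314 and +111304 bp with scores of 14 and 13, no higher than those inside at Sox2 (14 to 21). The only C4 peak within 150 kb of any of the 3 genes was at +110560 bp, 1 bp from that of A6, with a score of 12 (6.20 to 21.0), a normalized tag count of 5.9 and 4.68 times the input, rank 126 of 631. No OCT4 peak was called beyond +95496 bp at Sox2 up to 150 kb. At Nanog the peak nearest outside the limit was a NANOG peak at -116139 bp with a score of 28, in an intron of Apobec1, an RNA-editing cytidine deaminase gene. The Nanog peak just inside the limit was that of SIM2 in B8 at -98929 bp.

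**Figure D2:**
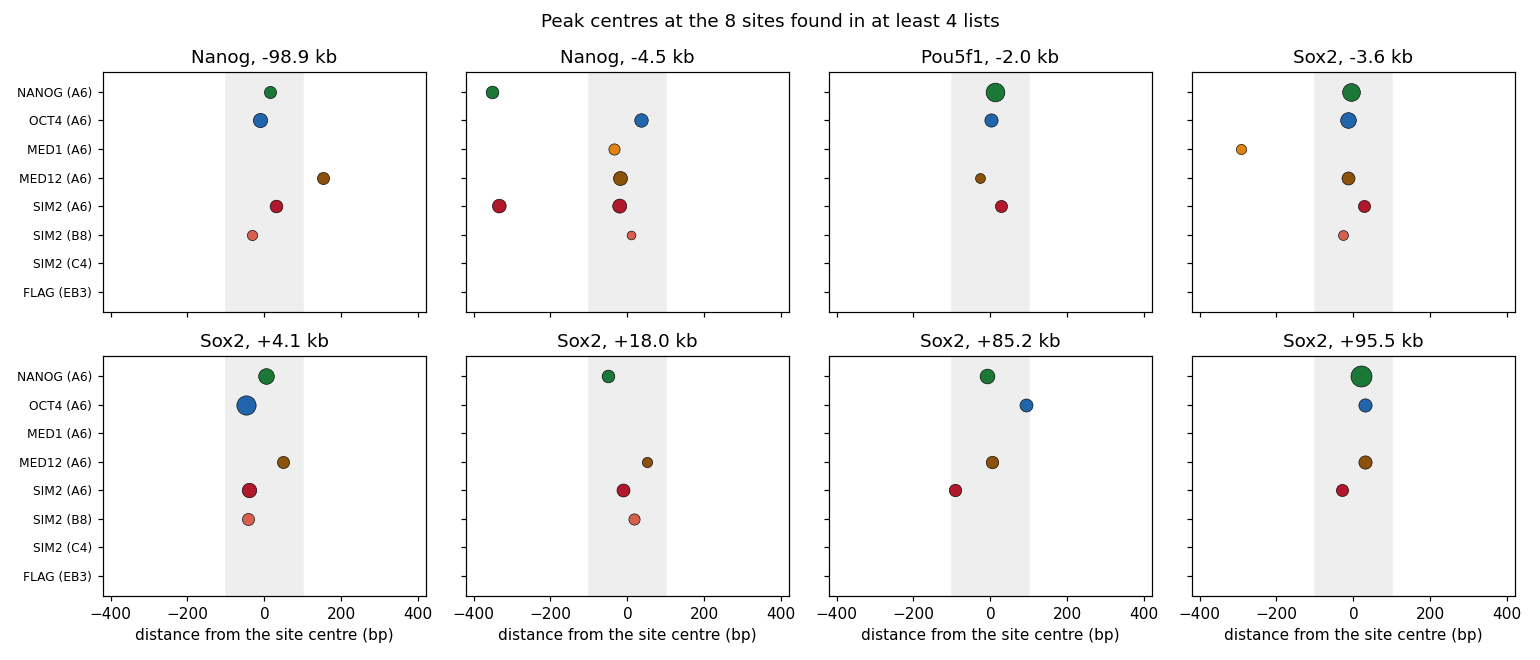
Peak centres around the 8 sites of the 3 genes found in at least 4 lists; the horizontal axis is the distance from the site centre in bp, rows are the lists, circle area is proportional to the score and the pale band marks 100 bp on either side. The NANOG peak and a second SIM2 peak of A6 lie outside the band at Nanog -4.5 kb. So do the MED12 peak at Nanog -98.9 kb and the MED1 peak at Sox2 -3.6 kb. At Pou5f1 -2.0 kb and at the remaining Sox2 sites, all peaks shown lie inside the band.

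Across the 29 sites, 22 held NANOG, against 86.2% of all sites, and 9 held OCT4, against 14.7%. NANOG and OCT4 coincided at 8, of which 2 were at Nanog, 1 at Pou5f1 and 5 at Sox2, while 13.1% of all sites held both. A Mediator subunit was present at 12 sites, 3 at Nanog, 1 at Pou5f1 and 8 at Sox2, against 9.18% of all sites. SIM2 of any clone was present at 13, with 6, 1 and 6 at the 3 genes, against 20.6% of all sites. The full combination of NANOG, OCT4, Mediator and SIM2 was found at 5 sites, 4 at Sox2 and 1 at Pou5f1, and at 2.27% of all sites. Nanog had no site with the full combination, because at -4457 bp NANOG was missing within 100 bp and at -98898 bp MED12 was. With centres chained at 200 bp the full combination was found at 6 sites.

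NANOG alone accounted for 11 sites, 5 at Nanog, 5 at Pou5f1 and 1 at Sox2, and for 65.8% of all sites. Of the 22 NANOG sites, 10 held SIM2, against 13.8% of all NANOG sites, and 7 held Mediator, against 6.02%. Of the 9 OCT4 sites, 8 held NANOG, which is near the 89.0% over all OCT4 sites. Of the 10 MED12 sites, 8 held SIM2, against 50.2% of all MED12 sites, and 7 held NANOG, against 74.7%. SIM2 without NANOG occurred at 3 sites, all at Nanog, while 57.9% of all SIM2 sites held NANOG.

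Where peaks coincided within 100 bp, OCT4 centres were the closest to NANOG centres, with a median distance of 11 bp over 7 pairs (range 6 to 91 bp). The median was 26 bp over 6 pairs for MED12 (8 to 95 bp), 34.5 bp over 10 pairs for SIM2 in A6 (8 to 85 bp) and 46 bp over 4 pairs for SIM2 in B8 (21 to 68 bp). These ranges overlap. The number of pairs is small and the peaks of a list have a fixed width between 152 and 216 bp, so the distances are a description.

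SIM2 in at least 2 clones and absent from EB3 was found at 5 sites, at -98898 and -4457 bp of Nanog and at -3613, +4089 and +18015 bp of Sox2, against 7.34% of all sites. In each of the 5 the clones were A6 and B8. No site of the 3 genes had all 3 clones, where 2.09% of all sites did. Of the 13 SIM2 sites, 5 were thus found in 2 clones, near the 35.8% over all SIM2 sites. B8 scores at these sites were 11 to 21 and A6 scores 21 to 30, but the lists were not scaled alike, so the difference in size was not read. The absence of C4 inside the limit stands beside the length of its list, 631 peaks against 2387 in A6, and the part of list length in it was not tested.

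**Figure D3:**
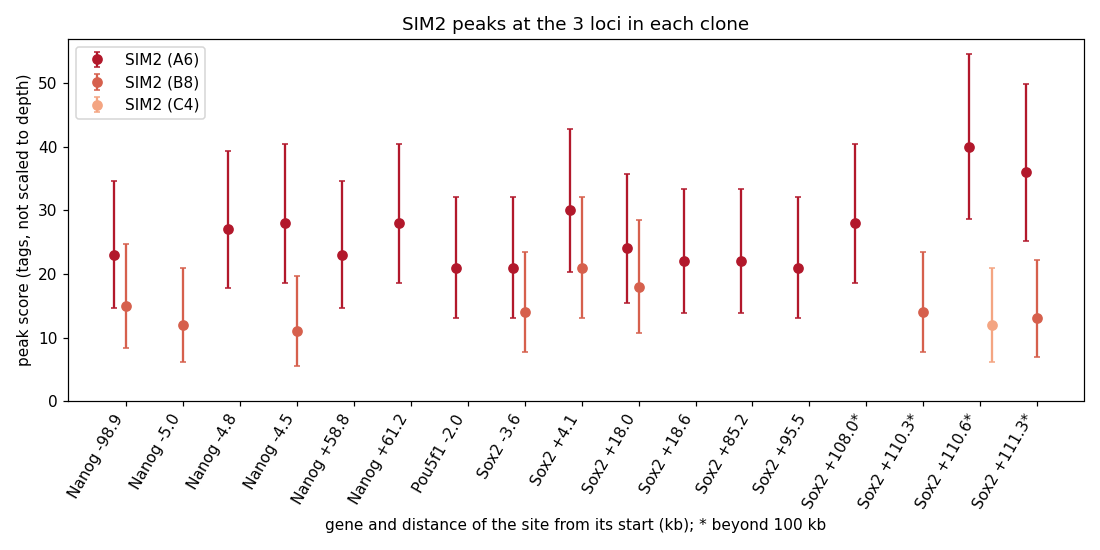
Score in tags (not scaled to depth) of every SIM2 peak at the 3 genes by site and clone, with exact Poisson 95% intervals as bars; sites with an asterisk lie beyond 100 kb. Points of A6 and B8 share 5 sites inside the limit, and the single point of C4, with a score of 12, stands at Sox2 +110.6 kb.

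The peaks of the 3 genes were spread over the upper and lower parts of the NANOG, OCT4 and MED12 lists, and over a narrower range in the others. Their median rank by normalized tag count, from the top, was 33.1% for the 22 NANOG peaks, 43.7% for the 9 OCT4 peaks, 30.1% for the 3 MED1 peaks and 54.2% for the 10 MED12 peaks. For SIM2 it was 69.2% for the 12 peaks of A6 and 41.2% for the 6 of B8. In A6 the peaks at the 3 genes had normalized tag counts of 8.6 to 12.4, where the median of the list was 11.2. The best placed of the 12, at +4048 bp of Sox2, stood at 34.6% from the top. The OCT4 and MED12 medians shift to the other side of the middle of the list when peaks are ranked by fold over the input, to 67.3% and 29.1%.

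**Figure D4:**
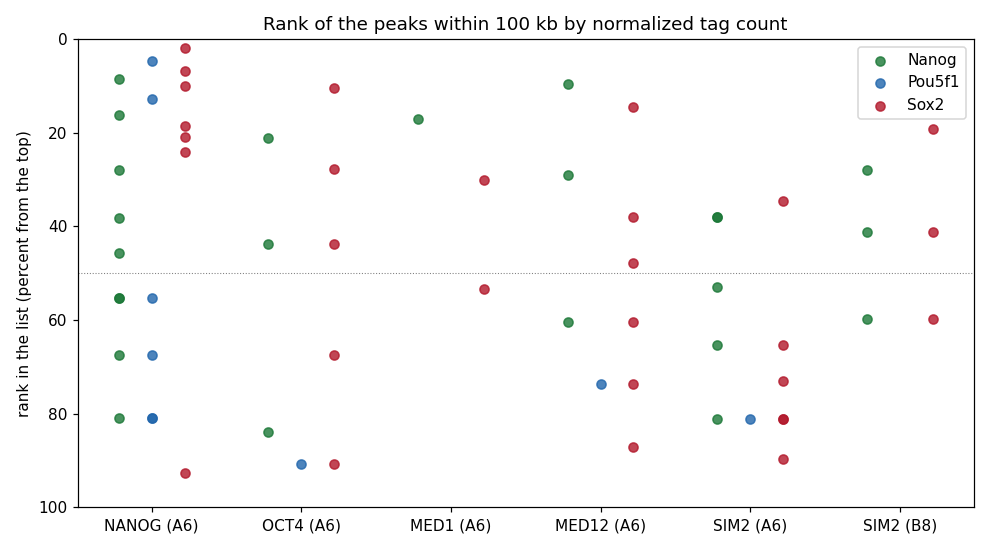
Rank of every peak within 100 kb in its own list by normalized tag count, in percent from the top (0 is the highest peak); columns are lists and colours are genes, and the dotted line is the middle of the list. NANOG peaks of Sox2 reach the top of their list, SIM2 peaks in A6 start at 34.6%, and C4 and EB3 have no point.

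The other genes of the pluripotency network were taken as a list of 26, of which 25 had a match in the annotation. All 25 had a NANOG peak within 100 kb, 20 an OCT4 peak, 16 a MED1 peak and 20 a MED12 peak. SIM2 peaks were found at 21 for A6, at 21 for B8 and at 7 for C4, and an EB3 peak at 1, Lin28a, the gene of an RNA-binding protein. The median number of peaks per gene was 4 for NANOG and 1 for OCT4, MED1, MED12, SIM2 in A6 and SIM2 in B8, while over all protein-coding genes the median was 1 for NANOG and 0 for each other list.

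Klf5, the gene of a Krüppel-like factor, had the most NANOG peaks of the list with 14 and the most OCT4 peaks with 6, more than any of the 3 core genes. Sox2 exceeded all 25 in MED12, with 6 peaks against at most 3, and in SIM2 of A6, with 6 against at most 4 (Klf5 and Tet2), as Nanog did there with 5. In B8 the most was 4, at Esrrb, the gene of an orphan nuclear receptor, against 3 at Nanog and at Sox2. In C4 Klf5 had 3 and Klf4 had 2, and none of the 3 core genes had any. Pou5f1, with 1 OCT4, 1 MED12 and 1 A6 peak, stood at the median of the list in these 3. It was below the median in MED1 and in B8, with 0 against 1 in each, and above it in NANOG, with 6 against 4.

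**Figure D5:**
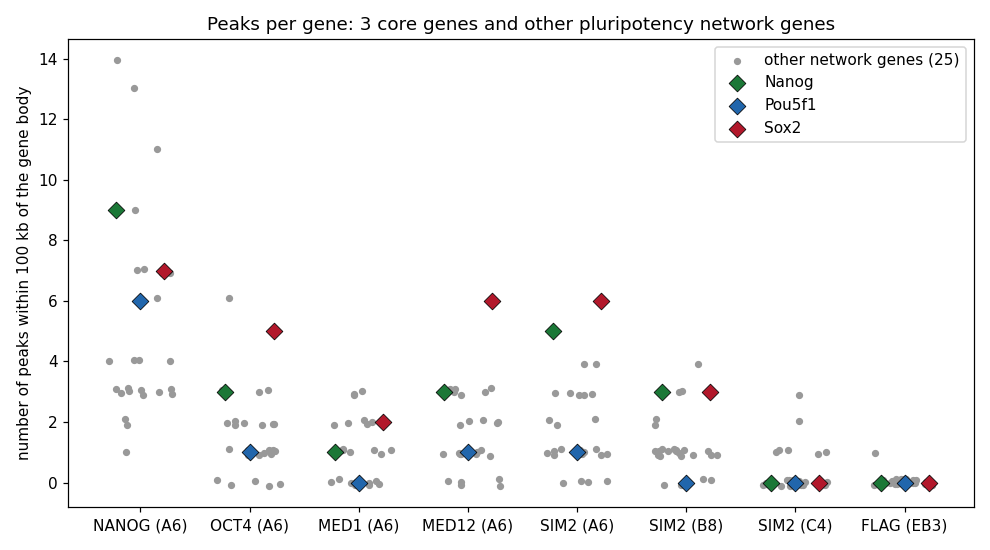
Number of peaks within 100 kb of the gene body in each list for Nanog, Pou5f1 and Sox2 (diamonds) and for 25 other genes of the pluripotency network (grey points, spread sideways and slightly upwards or downwards so that equal numbers can be seen). The diamonds of Sox2 lie above all grey points for MED12 and SIM2 in A6, and those of all 3 genes lie at 0 for C4 and EB3.

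The gene most like each core gene was sought over all 8 lists from the share of normalized tags within 100 kb, as log2(1 + ppm), by Euclidean distance. For Pou5f1 these were Ksr1 (a scaffold of Ras signalling) at 0.184 and its neighbours Lgals9 (a galectin) and Nos2 (a nitric oxide synthase), both at 0.269. Ksr1 had 6 NANOG, 1 OCT4, 1 MED12 and 1 A6 peak, the same numbers as Pou5f1. For Nanog they were 1700021O21Rik and Clnk, both at 0.783, and Zfp518b at 0.845, which also lie side by side. For Sox2 they were Tgif1 (a homeodomain repressor) at 1.07, its neighbour Dlgap1 at 1.17 and Nanog at 1.20. Tgif1 had 5 MED12, 5 OCT4, 10 NANOG and 5 A6 peaks.

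Motif matches were sparse in the 200 bp windows, and both strands were searched. The octamer core TTTGCAT was found at 2 of the 29 sites, against 13.6% of all sites. It was present in 20.4% of all OCT4 peaks, and of the 9 OCT4 sites it was present at 1. That was the site at -82796 bp of Nanog, beside Dppa3, which holds 2 matches in the sequence printed above. The full SOX-POU composite is that octamer core, followed on the same strand by any base and part of a SOX core. That part is the run of bases that opens both SOX cores given below. The composite was found at none of the 29 sites, against 0.530% of all sites.

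A shorter form of the composite, without the first 2 letters of the octamer core, was searched after the sequences had been seen. It was found at the sites at -1984 bp of Pou5f1 and +4089 bp of Sox2, and at 1.37% of all sites and 4.23% of OCT4 peaks. In the Pou5f1 sequence the match runs into an ACAAAG, and in the Sox2 sequence it overlaps an ACAATG. Both windows held NANOG, OCT4, MED12 and SIM2. Because the pattern was chosen from these sequences, its presence there is a description only.

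The SOX cores were common everywhere. ACAAAG was found at 9 of the 29 sites, against 32.1% of all sites, and ACAATG at 3, against 20.8%. The ACGTG core of SIM2 and ARNT was found at 4 sites, against 6.17% of all sites and 12.8% of SIM2 peaks in A6. Of the 4, 2 were among the 13 SIM2 sites, +4089 and +18015 bp of Sox2, both bound in A6 and B8. The other two, -13373 bp of Nanog and +37820 bp of Pou5f1, held NANOG alone. Beyond the limit, ACGTG was also found in the window at +110560 bp of Sox2, where A6 and C4 coincided, and at +108026 bp.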

How the data were processed

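ChIP-seq was done in 8 ChIP libraries of mouse ES cells. The authors digested crosslinked chromatin enzymatically, aligned reads to mm9 with BWA and ran HOMER on every library with an input library as control, which OCT4 and NANOG shared, as did MED1 and MED12. Versions are not given in the sources used here. As deposited, normalized tag counts are a signal scaled for depth by HOMER. Deposited scores are in whole tags. Among the deposited values, total tags are whole counts in B8, C4, NANOG, MED1 and MED12 only. The fold over the input is a ratio, and its p-value, the fraction called focus ratio and the local values deposited with it were not used. The ratio of normalized tag count to score, both in tags at the recovered depth, was 0.970 in A6 and 0.996 in EB3. It was 0.500 to 0.504 in the other lists, and its cause is not stated.

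From the deposited lists, peaks within 100 kb of the GENCODE vM1 gene bodies were taken by their centres, and centres of the 7 lists without EB3 were chained at 100 bp. Depth was recovered from equal steps of the normalized tag count under HOMER's default of 10 M tags, on which 99.5% to 100% of peaks fell. Sequences and motifs came from the mm9 genome (NCBIM37), in which all 20 chromosomes of the lists were found. The merging was tested on simulated data, where 500 of 500 planted sites were recovered. Python 3.11.15 with numpy 2.4.6, pandas 2.3.3, scipy 1.17.1 and matplotlib 3.10.9 was used.

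The genes, the network list, the motifs and the alternatives were chosen with earlier results of these data known. Every peak within 100 kb is accounted for, with the nearest peaks beyond. Other genes are named where a peak lies nearest to their start, where they equal or exceed a core gene in peaks, or by the likeness measure, which took the 3 genes over 1 Mb away with the smallest distance. Alternatives were windows of 50 and 150 kb or around the start site, chaining at 50 or 200 bp, peak edges, peaks at least 8 times the input, leaving out each clone, no EB3 filter, and ranks by fold or score.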

Additional observations from a re-analysis of the deposited data

How the results depend on the processing

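Of 82 alternative values, 47 stayed close to the reported value and 35 moved. Close allowed sizeable changes, since Sox2 went from 29 to 42 peaks at 150 kb and was called close. Counts that stayed at 0 were called close too. A 50 kb window left 10 peaks at Nanog and 19 at Sox2, and 7 of SIM2 in A6, 12 of NANOG, 5 of OCT4 and 6 of MED12. A 150 kb window gave C4 its 1 peak. A limit of 8 times the input left 5 peaks at Nanog, 2 at Pou5f1 and 8 at Sox2, of which 1 was SIM2 in A6, 1 SIM2 in B8, 12 NANOG, 1 OCT4, 0 MED1 and 0 MED12. At that limit 5, 2 and 5 sites remained at Nanog, Pou5f1 and Sox2, with NANOG and OCT4 together at 1, Mediator at 0, all 4 kinds of factor at 0 and SIM2 in 2 clones at 1. Most coinciding sites therefore rest on at least 1 peak under 8 times the input. Sites with SIM2 in at least 2 clones ranged from 0 to 5 when a clone was left out: 0 without A6, 0 without B8 and 5 without C4. Both remaining clones were required and C4 had no peak within 100 kb, so these values were fixed in advance. Chaining at 200 bp gave 6 sites with SIM2 in at least 2 clones, 11 sites at Nanog and 6 with all 4 kinds of factor. Chaining at 50 bp gave 14 sites at Nanog, 13 at Sox2, 6 with NANOG and OCT4 and 4 with all 4 kinds. The count with all 4 kinds was tried at these settings after seeing the data. Ranked by fold over the input, the median ranks were 77.88% in A6, 34.14% in B8, 28.86% in NANOG, 67.34% in OCT4 and 29.13% in MED12. Ranked by score they were 36.29% in B8, 26.39% in NANOG, 64.42% in OCT4, 43.04% in MED1 and 30.53% in MED12. No paired analysis was possible because no result comes from a test and NANOG, OCT4, MED1 and MED12 have 1 library each. Scores of 10 to 63 tags limit the precision, and with 1 library a peak that was not called is not shown to be absent.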
